A study of Mus musculus with 18 samples.

Results

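Dividing tumour cells were picked from 1 Drop-seq library of a mouse glioma by the transcripts of 8 genes of cell division. A barcode was kept when it had at least 1000 unique molecular identifiers (UMIs, each a counted transcript molecule), at most 20% of them from mitochondrially encoded genes, and no UMI of the 6 myeloid genes C1qa, C1qb, C1qc, Tyrobp, Csf1r and Ptprc. Of 5000 barcodes, 3469 reached the UMI minimum, 47 of those exceeded the mitochondrial limit and 411 of the rest held a myeloid gene, which left 3011 cells. Dividing cells were the 606 in which at least 3 of Mki67, Top2a, Ccnb1, Cenpf, Hmmr, Tpx2, Birc5 and Cdk1 were detected, 20.1% of the kept cells (exact 95% interval 18.7 to 21.6%). They are set against the 1457 kept cells with none of the 8 genes, while 948 cells with 1 or 2 of them stand between. The measured transcripts chose the members, so every value of dividing cells against cells with none is a description, without a test, and with 1 library there is no replicate check. Intervals cover counting error only, not the variation between cells or animals.

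The study asks whether tumours with different genetic drivers differ in the role of their myeloid cells and in their response when CSF1R, the receptor those cells depend on, is inhibited. The tumour of the Drop-seq library was driven by HRasV12, an active form of the RAS protein, together with a dominant negative p53, in an untreated Boy/J mouse. Whole tumour was taken from the brain, dissociated with collagenase, filtered and freed of red cells by lysis, so host cells were included, and no sort was named. A second library, made on the 10x platform from a tumour of the same drivers, strain and treatment, was put through the same rule and is given beside it. The labels do not say whether both libraries came from 1 animal or whether animals were pooled. The other libraries of the 18 in the series are bulk RNA and were not used.

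A dividing cell copies its DNA in S phase and separates the copies in mitosis, and the proteins for each step are made from genes that are switched on in turn. Genes for replication are driven mainly by E2F factors around the start of S phase. Genes for mitosis are driven later by the MuvB complex with B-MYB and FOXM1, acting at the CHR element, and by NF-Y at CCAAT boxes. The 8 genes of the rule belong to the later wave. Mki67 encodes the Ki-67 protein that coats mitotic chromosomes, Top2a the topoisomerase that untangles DNA, Ccnb1 cyclin B1 and Cdk1 the kinase that cyclin B1 activates. Cenpf is a kinetochore protein, Hmmr and Tpx2 act on spindle microtubules, and Birc5 (survivin) is a subunit of the chromosomal passenger complex.

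The promoters of the rule's own genes were searched for the letters of these elements. The submitters' processing notes name the build GRCm38, without a patch level. RefSeq (GRCm38.p6) held a promoter window of 300 bases for 7 of the 8 genes, all but Tpx2. The letters TTTGAA of the CHR element, read on both strands, occurred in 5 of these 7 windows (71.4%), against 17.9% of all 32851 windows. CCAAT occurred in 6 of 7 (85.7%) against 37.4% of all windows, and both together in 5 of 7 against 6.95%. The E2F-type letters TTTCCCGC, or alternatively TTTGGCGC, occurred in none of the 7 and in 1.56% of all windows. A match is a run of letters, not a shown binding site. The 250 bases before the start of 3 genes with both motifs upstream, and of Ccnb1 with CCAAT alone, are shown for comparison. They are written 5′ to 3′ on the strand of the gene, with the CHR letters TTTGAA and the CCAAT box, on either strand, in capitals.
Mki67 (chr7:135716380-135716629, minus strand): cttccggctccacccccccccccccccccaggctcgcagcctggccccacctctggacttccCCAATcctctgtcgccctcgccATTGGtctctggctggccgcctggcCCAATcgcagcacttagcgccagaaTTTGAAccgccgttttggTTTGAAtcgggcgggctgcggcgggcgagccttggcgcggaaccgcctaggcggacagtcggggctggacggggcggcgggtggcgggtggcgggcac
Top2a (chr11:99024190-99024439, minus strand): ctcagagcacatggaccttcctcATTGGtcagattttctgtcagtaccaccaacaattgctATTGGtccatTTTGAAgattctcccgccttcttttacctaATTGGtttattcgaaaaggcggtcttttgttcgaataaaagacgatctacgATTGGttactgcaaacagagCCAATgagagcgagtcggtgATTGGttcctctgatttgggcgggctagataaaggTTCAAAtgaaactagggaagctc
Cdk1 (chr10:69352913-69353162, minus strand): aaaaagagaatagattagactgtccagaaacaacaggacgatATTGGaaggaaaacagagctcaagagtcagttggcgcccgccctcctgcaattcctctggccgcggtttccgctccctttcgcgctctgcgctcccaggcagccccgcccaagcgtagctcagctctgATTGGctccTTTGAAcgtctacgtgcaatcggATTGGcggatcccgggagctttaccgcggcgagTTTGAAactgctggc
Ccnb1 (chr13:100786487-100786736, minus strand): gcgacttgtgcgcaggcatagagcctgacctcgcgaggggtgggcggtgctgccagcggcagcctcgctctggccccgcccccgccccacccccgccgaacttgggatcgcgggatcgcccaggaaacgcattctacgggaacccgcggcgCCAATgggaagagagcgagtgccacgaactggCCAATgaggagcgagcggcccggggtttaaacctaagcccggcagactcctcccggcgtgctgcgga
Mki67, Top2a and Cdk1 each held 2 runs of TTTGAA in the bases shown, with 3, 6 and 3 CCAAT runs in that order, and Ccnb1 held 2 CCAAT runs. The promoter of Birc5 held none of the motifs searched.

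Gene groups outside the rule differed in the same letters. Of 46 windows of the G2/M list, taken without the rule's genes, 63.0% held TTTGAA, 73.9% CCAAT and 4.35% an E2F-type run. Of 34 windows of the S phase list, 17.6% held TTTGAA, 67.6% CCAAT and 29.4% an E2F-type run. For the genes that license and fire replication origins, 40.0% of 15 windows held TTTGAA and 46.7% an E2F-type run. For glial progenitor genes 29.4% of 17 windows held TTTGAA and 0 an E2F-type run. The TTTGAA share of the S phase windows was close to the 17.9% of all windows, while those of the G2/M, origin and glial progenitor windows lay above it. The origin and glial progenitor shares rest on few windows, 6 of 15 and 5 of 17. CCAAT occurred in 66.7% of origin and 52.9% of glial progenitor windows, so its share lay above the 37.4% of all windows in each of these lists.

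No empty class separated dividing cells from the rest by the number of the 8 genes found in a cell. From 0 to 8 genes the counts were 1457, 688, 260, 139, 105, 117, 111, 87 and 47 cells, with a low point at 4 genes between 3 and 5. With every cell thinned to 1000 UMIs that low point was absent, at 165, 122 and 83 cells with 3, 4 and 5 genes. Depth ran with the number of genes found. Dividing cells had a median of 2556.5 UMIs (interquartile range 1716 to 3942, highest 24977) and 1460 genes, against 1598 UMIs (1228 to 2348, highest 8729) and 1018 genes in cells with none. Mitochondrial UMIs had a median of 4.04% in dividing cells and 4.55% in cells with none. Among kept cells of 1000 to 1500 UMIs 10.2% met the rule, then 18.1% up to 2500, 27.6% up to 4000 and 44.3% above. When every cell was thinned to 1000 UMIs, 419 cells met the rule (13.9%, 12.7 to 15.2%), and the shares along the same depth classes were 9.44, 13.3, 16.8 and 24.7%. The rise with depth was therefore smaller at equal depth but still present. Doublets were not removed, and their part in the deepest cells was not tested. No barcode was shared between the 2 libraries, and 30 kept Drop-seq barcodes differed by 1 base from another kept one.

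At the threshold itself, the 139 cells with 3 genes lay just inside and the 260 with 2 genes just outside. Their median depths were close, 2216 UMIs with 3 genes and 2311 with 2. Pcna, the sliding clamp of DNA polymerase, stood at 317 counts per M UMIs (CPM, M: 1e6, over the pooled cells of a class) with 3 genes and 211 with 2. Ube2c, the ubiquitin-conjugating enzyme that acts with the anaphase-promoting complex, stood at 183 CPM with 3 genes and 74.6 with 2. The G2/M list without the rule's genes summed to 6588 CPM with 3 genes and 3675 with 2, and to 2125 with none. Cells with 1 or 2 genes were therefore intermediate and not equal to cells with none.

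The label was checked against markers. At least 2 of 11 glial tumour markers, such as Olig1, Olig2, Sox2 and Pdgfra, were found in 603 of 606 dividing cells (99.5%) and in 1405 of 1457 cells with none (96.4%). The 11 markers summed to 7164 CPM in dividing cells and 6990 CPM in cells with none. Host cells were included in the library, and whether cells with these markers came from the tumour or the host was not tested. For comparison, 53 of 99 barcodes with 3 or more of the 6 myeloid genes (53.5%, median 1593 UMIs) also had at least 2 glial markers, with a summed level of 3082 CPM. Free RNA and doublets cannot be told apart in that share. Among other cell types, all 6 neutrophil markers were at 0 in dividing cells, and at least 2 markers were found in 0 of 606 cells for T and NK, B and erythroid cells. A count of 0 of 606 allows up to 0.495% of cells with 2 detected markers (3 counts in place of 0), and says nothing of cells too shallow to show 2. At least 1 T or NK marker was found in 8 dividing cells (1.32%). At least 2 markers were found in 3 dividing cells (0.495%) for endothelium, 6 (0.990%) for fibroblasts and 8 (1.32%) for pericytes. At least 1 was found in 6.60, 3.30 and 5.12% of dividing cells, in that order. Oligodendrocyte markers were found more widely, at least 2 of 8 in 28.9% of dividing cells and 18.7% of cells with none, at the unequal depths given above. After thinning to 1000 UMIs the order turned, with 7.59% of dividing cells and 9.40% of cells with none. For astrocyte markers the share with at least 2 of 8 was 23.1% of dividing cells and 22.7% of cells with none, and 5.78% and 9.95% after thinning. The 8 myeloid markers the filter did not use summed to 84.6 CPM in dividing cells and 131.7 CPM in cells with none. At least 2 of these 8 were found in 3.14% of dividing cells and 2.26% of cells with none, and in 0.660% and 0.618% after thinning. Their part in the results was not tested.

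The 8 genes themselves were found together in changing combinations. In dividing cells, the share with a UMI was 87.0% for Top2a (1588 CPM), 81.7% for Cenpf (1185 CPM) and 73.8% for Mki67 (631 CPM). It was 65.0% for Cdk1 (458 CPM), 58.1% for Tpx2 (344 CPM), 56.4% for Hmmr (406 CPM), 56.3% for Birc5 (314 CPM) and 28.9% for Ccnb1 (143 CPM). All 8 stood at 0 in cells with none, by the rule. Of the 175 dividing cells with Ccnb1, 88.6% also had Top2a, 88.6% Cenpf and 73.7% Cdk1. Of the 527 with Top2a, 29.4% had Ccnb1 and 74.6% Mki67.

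To describe a gene without its own part in the choice, cells were chosen anew by the other 7 genes, at least 3 of 7 against none of 7. Mki67 then stood at 629 CPM in dividing cells and 20.7 CPM in cells with none, a ratio of 30.4 (23.5 to 40.0). The ratio was 29.9 for Hmmr, 24.9 for Ccnb1, 23.1 for Birc5, 22.0 for Top2a, 17.0 for Cdk1, 16.2 for Cenpf and 14.7 for Tpx2. Applied to the 10x library, the same procedure gave 61.3 (37.0 to 109.8) for Mki67 and 14.4 to 31.9 for the other 7 genes. The intervals of the libraries overlapped for all genes but had only their edges in common for Mki67, at 37.0 to 40.0.

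Over all genes, 9584 had at least 50 UMIs in dividing cells and cells with none together. Of these 403 (4.20%) had a CPM at least 2-fold higher in dividing cells and 209 (2.18%) at 0.5-fold or less, and these include the rule's genes. The lower count depended on the setting, with 105 genes among cells of at least 2000 UMIs and 318 with means of single-cell CPM. The median log2 ratio of all genes was -0.07 in Drop-seq. These shares are the background for the lists that follow, which leave out the rule's genes. Since the members were chosen by division genes, the high counts in the division lists describe the cells and support nothing further.

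Spindle and kinetochore genes had the highest medians of the lists described here. All 15 counted spindle and motor genes were at least 2-fold higher in dividing cells, with a median log2 ratio of 4.33. Prc1, which bundles the microtubules of the central spindle, stood at 606 CPM in dividing cells and 30.1 CPM in cells with none (ratio 20.1, 16.2 to 25.4). Kif11, the motor that pushes spindle poles apart, stood at 155 CPM in dividing cells and 4.25 CPM in cells with none, and Nusap1, a spindle microtubule binder, at 398 CPM in dividing cells and 14.9 CPM in cells with none. Plk1, the mitotic kinase, stood at 62.6 CPM in dividing cells and 4.25 CPM in cells with none.

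Kinetochore and checkpoint genes were equally uniform, with 12 of 12 higher and a median of 4.26 (3.65 against all cells with fewer than 3 of the 8 genes). Cenpe, a kinetochore motor, stood at 885 CPM in dividing cells and 36.1 CPM in cells with none (ratio 24.5, 20.1 to 30.2). Ndc80, which ties kinetochores to microtubules, was found in 177 dividing cells and 6 cells with none (134 CPM in dividing cells, 2.12 CPM in cells with none). Bub3 had the lowest ratio of the group, 2.42 (2.05 to 2.87), with 194 CPM in dividing cells and 80.0 CPM in cells with none. All 3 remaining subunits of the chromosomal passenger complex were higher as well, Aurkb at 26.9-fold, Cdca8 at 12.3-fold and Incenp at 12.2-fold.

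Genes that fold and hold chromosomes differed among themselves. All 8 condensin genes counted were higher, with a median of 2.81. Smc4 stood at 1506 CPM in dividing cells and 248 CPM in cells with none, and Ncapg at 136 CPM in dividing cells and 3.54 CPM in cells with none. Of 8 cohesin genes, with a median of 0.85, 3 were at least 2-fold higher, the cleaved subunit Rad21 (2.70-fold), the separase Espl1 (23.7-fold, 7.63 to 119) and the shugoshin Sgo1 (55.0-fold, 23.2 to 171). The cohesin ring subunit Smc3 stood at 603 CPM in dividing cells and 449 CPM in cells with none, and Pttg1 (securin), the inhibitor of separase, at 44.1 CPM in dividing cells and 52.8 CPM in cells with none (ratio 0.836, 0.633 to 1.10).

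Regulators of the mitotic kinase and of its destruction split in a like way. All 8 mitotic cyclins and CDK regulators counted were higher, with a median of 3.86. Ccnb2 stood at 243 CPM in dividing cells and 13.5 CPM in cells with none, and Ccna2 at 137 CPM in dividing cells and 7.79 CPM in cells with none. The CDK1 inhibitory kinase Wee1 stood at 19.5 CPM in dividing cells and 5.31 CPM in cells with none. Of 12 genes of the anaphase-promoting complex and its partners 5 were higher, with a median of 0.39. Those 5 were the activators Cdc20 (30.4-fold) and Fzr1 (2.63-fold), the inhibitor Fbxo5 (13.1-fold), the enzyme Ube2c (37.2-fold, 27.7 to 51.3) and the core subunit Cdc23 (2.24-fold). The other core subunits lay between 0.901 for Anapc1 and 1.37 for Cdc27.

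Most replication genes were higher too, with a smaller median than the G2/M list. In the S phase list 36 of 41 counted genes were at least 2-fold higher and none lower, with a median of 1.84, against 45 of 47 and a median of 4.16 in the G2/M list. Pcna stood at 344 CPM in dividing cells and 89.2 CPM in cells with none (ratio 3.85, 3.33 to 4.47). Rrm2, the regulated subunit of ribonucleotide reductase, stood at 252 CPM in dividing cells and 20.5 CPM in cells with none (ratio 12.3, 9.35 to 16.4). Among nucleotide synthesis genes 7 of 10 were higher, with Tk1 at 12.9-fold and the purine enzymes Paics (1.40) and Impdh2 (1.18) under 2-fold. Of 17 origin genes 14 were higher, the helicase subunits Mcm2 to Mcm7 between 2.08-fold (Mcm4) and 3.49-fold (Mcm3), and geminin (Gmnn), the brake on new licensing, at 7.33-fold. Of 11 DNA repair genes 9 were higher, with a median of 2.90 (2.11 against all cells with fewer than 3 of the 8 genes), such as Brca1 (12.3-fold).

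Chromatin proteins and tubulins were mixed. Of 15 histone variant and HMG genes 8 were higher. Hmgb2, which bends DNA, stood at 1219 CPM in dividing cells and 96.0 CPM in cells with none (ratio 12.7, 11.2 to 14.5), and H2afx, the variant phosphorylated at DNA breaks, at 284 CPM in dividing cells and 29.4 CPM in cells with none. H3f3a (1.17), Hmga1 (0.742) and Hmga2 (0.909) were under 2-fold in either direction. Of 8 counted replication-dependent histone genes 4 were higher and 1 lower. Their near-identical copies and mostly unpolyadenylated transcripts make these counts uncertain. Of 12 tubulin and stathmin genes 7 were higher, among them Tuba1b (1358 CPM in dividing cells, 479 CPM in cells with none) and Stmn1 (4.90-fold). The neuronal-type Tubb3 had a ratio of 1.02 (0.866 to 1.21) and Tubb2a one of 1.03.

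Genes of the G1 machinery were mixed, and D-type cyclins were at similar levels in both groups. Ccnd1, cyclin D1, a target of RAS signalling, stood at 5986 CPM in dividing cells and 5783 CPM in cells with none (ratio 1.04, 1.01 to 1.06). Ccnd2 stood at 1490 CPM in dividing cells and 1881 CPM in cells with none, and Cdk4 at 836 CPM in dividing cells and 665 CPM in cells with none. Cyclin E genes were higher in dividing cells, Ccne2 at 47.7 CPM in dividing cells against 4.96 CPM in cells with none, and Ccne1 at 21.5 CPM in dividing cells against 4.25 CPM in cells with none. Altogether 4 of 8 counted G1 genes were at least 2-fold higher, with a median of 0.82. That median was 0.32 among cells of at least 2000 UMIs, 0.29 among cells of 1500 to 4000 UMIs and -0.05 over genes with at least 200 UMIs.

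CDK inhibitors went in different directions. Cdkn2c and Cdkn2d, inhibitors of CDK4 and CDK6, were 3.30-fold (2.40 to 4.59) and 3.36-fold (2.56 to 4.44) higher in dividing cells, and the pocket protein Rbl1 was 7.89-fold higher. Cdkn2b, the inhibitor of the same kinases at the Ink4 locus, stood at 171 CPM in dividing cells and 343 CPM in cells with none (ratio 0.499, 0.440 to 0.566). Its neighbour Cdkn2a stood at 627 CPM in dividing cells and 867 CPM in cells with none (ratio 0.723). Cdkn1a, the p21 inhibitor, stood at 332 CPM in dividing cells and 201 CPM in cells with none (ratio 1.65, 1.47 to 1.85). In the 10x library the ratios were 1.11 for Cdkn2b, 1.07 for Cdkn2a, 1.20 for Cdkn1a, 1.99 for Cdkn2c and 1.84 for Cdkn2d, all under 2-fold.

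Of 14 p53 target genes 1 was at least 2-fold higher, Pmaip1 (19.5 CPM in dividing cells, 7.44 CPM in cells with none). Trp53 itself stood at 245 CPM in dividing cells and 208 CPM in cells with none. Hras stood at 35.9 CPM in dividing cells and 32.2 CPM in cells with none (ratio 1.11, 0.804 to 1.54), and whether the count includes the HRasV12 transcript was not given in the sources used here. Feedback genes of the MAPK pathway, which RAS drives, were at least 2-fold different in 0 of 13 counted genes, with a median of -0.10. Dusp6 stood at 621 CPM in dividing cells and 639 CPM in cells with none, and Spry2 at 654 CPM in dividing cells and 623 CPM in cells with none. Immediate early genes gave 0 of 10 and a median of -0.07, with Fos at 1466 CPM in dividing cells and 1386 CPM in cells with none.

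Glial progenitor genes were at similar levels in both groups. None of 18 counted was 2-fold higher or lower, and the median was -0.21, beside -0.07 for all genes. Olig1 stood at 1163 CPM in dividing cells and 1249 CPM in cells with none, Olig2 at 538 CPM in dividing cells and 518 CPM in cells with none, and Sox2 at 284 CPM in dividing cells and 292 CPM in cells with none. Sox11 (791 CPM in dividing cells, 612 CPM in cells with none) had the highest ratio of the 18 genes at 1.29, and Hes6 the lowest at 0.724. Nucleolar and MYC target genes had a median of 0.32 with 0 of 14 past 2-fold, led by Ranbp1 at 1.81 and Ran at 1.66. Entries grouped as ribosomal protein genes had a median of -0.18, with 0 of 207 counted higher and 1 lower. The group held 386 entries in Drop-seq and 113 in 10x, and which of them are intact genes was not checked.

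Some genes of differentiated, stressed or interferon-exposed cells were lower in dividing cells. Of 11 hypoxia and glycolysis genes 2 were at 0.5-fold or less, Vegfa (46.2 CPM in dividing cells, 106.9 CPM in cells with none, ratio 0.432, 0.337 to 0.548) and Hk2 (ratio 0.374). Of 10 mesenchymal glioma genes 2 were, S100a6 (39.0 CPM in dividing cells, 83.9 CPM in cells with none) and Lgals3 (ratio 0.483, but a log2 ratio of 0.039 when cells with 1 myeloid UMI were let in), while Vim had a ratio of 1.01. Of 8 interferon and MHC class I genes 3 were, Bst2 (0.322), Isg15 (0.395) and H2-K1 (0.493). Of 6 astrocyte genes 1 was, Gja1 (0.426), with S100b at 130 CPM in dividing cells and 229 CPM in cells with none. In the 10x library Vegfa (0.490), S100a6 (0.191), Lgals3 (0.314) and Gja1 (0.372) were also at 0.5-fold or less, while Bst2 (0.920), H2-K1 (0.974) and Isg15 (1.21) were not. Gja1 did not stand for its list there. The astrocyte median was -0.71 in Drop-seq and 0.10 in 10x, where 6 of 7 counted astrocyte genes had a ratio above 1. Markers of some other cell types were lower too, while fibroblast markers had a median of 0.24, with 1 of 4 counted at 0.5-fold or less. That fibroblast median rested on few cells, as 66 of the 97 Col1a1 UMIs of dividing cells were in 1 cell. It was -0.40 with means of single-cell CPM and 1.13 among cells with at least 2 glial tumour markers. In the 10x library it was -3.78, with 3 of 3 counted genes at 0.5-fold or less. The myeloid markers the filter did not use had a median of -0.76, with 2 of 4 counted at 0.5-fold or less. Pericyte markers had a median of -0.99, with 2 of 4 at 0.5-fold or less, though the median was -0.15 against all cells with fewer than 3 of the 8 genes. Their part in the lower levels was not tested.

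Oligodendrocyte genes had the lowest median of these lists, -1.79 with Mag at its bound, and 4 of 6 counted genes were at 0.5-fold or less. Mobp, a myelin-associated protein, stood at 6.67 CPM in dividing cells and 25.1 CPM in cells with none (ratio 0.265, 0.135 to 0.483). Mag, a myelin adhesion protein, had 0 UMIs in dividing cells and 81 UMIs in 15 cells with none, so its ratio was at most 0.0536 with 3 counts in place of 0. These UMIs sat in few cells. Any Mobp UMI was found in 2.15% of dividing cells and 2.33% of cells with none, and the 10 highest cells held 66.2% of the Mobp UMIs of cells with none. Without cells that had at least 4 of the 8 oligodendrocyte markers, a choice made after seeing the data, the median of the list was -0.32. Among cells of 1500 to 4000 UMIs in both groups it was -0.83. In the 10x library the median was 0.13.

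Along the selection, replication and mitosis genes took different courses. The summed S phase list stood at 1292 CPM in cells with none, 2107 CPM with 1 to 2 genes, 4497 CPM with 3 to 4, 4573 CPM with 5 to 6 and 3826 CPM with 7 to 8. The G2/M list went on rising over the same classes, at 2125, 2965, 7865, 12907 and 16033 CPM. Single genes of a list varied. With 7 to 8 genes against 3 to 4, all 47 G2/M genes with at least 20 UMIs in these classes had a higher CPM, while of 41 S phase genes 32 had a lower and 9 a higher one (median log2 ratio -0.24). Ccne2 stood at 59.1 CPM with 3 to 4 genes and 31.8 CPM with 7 to 8, and Mcm3 at 139 CPM with 3 to 4 and 66.9 CPM with 7 to 8. The S phase genes Usp1 and Nasp went the other way, Usp1 at 179 CPM with 3 to 4 and 228 CPM with 7 to 8, and Nasp at 430 CPM with 3 to 4 and 458 CPM with 7 to 8. Cdc20 stood at 121 CPM with 3 to 4 genes and 427 CPM with 7 to 8, Ube2c at 253 CPM with 3 to 4 and 984 CPM with 7 to 8, and Aurka at 37.9 CPM with 3 to 4 and 119 CPM with 7 to 8. The classes are built from genes of mitosis and differ in depth, so these courses are a description.

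Other mitosis lists also rose over these classes, such as spindle and motor genes from 212 CPM in cells with none to 3866.5 CPM with 7 to 8. Histone variant and HMG genes rose from 4098 to 10074 CPM. Some lists were flatter. Glial progenitor genes stood at 8022 CPM with 7 to 8 genes and 8429 CPM in cells with none, and interferon and MHC class I genes at 534 CPM with 7 to 8 and 831 CPM in cells with none. Over the classes from 0 to 7 to 8 genes Cdkn1a was higher in each later class, at 201, 211, 280, 327 and 397 CPM. Cdkn2b stood at 343, 321, 165, 160 and 191 CPM over the same classes.

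Single cells were also sorted by phase genes after thinning to 1000 UMIs, with the rule's genes left out. At least 3 genes of both the S phase and G2/M lists were found in 60.2% of dividing cells and 6.04% of cells with none. G2/M genes alone reached 3 in 34.3% of dividing cells and 23.6% of cells with none, and S phase genes alone in 1.82% of dividing cells and 7.48% of cells with none. Neither list reached 3 in 3.63% of dividing cells and 62.9% of cells with none. At full depth the S phase list took a median of 0.356% of a cell's UMIs in dividing cells and 0.0857% in cells with none, and the G2/M list 1.26% in dividing cells and 0.193% in cells with none. The part of free RNA in such calls was not tested. Some G2/M list genes were also common in cells with none, where the list had 6001 UMIs. Among these were Anp32e (880 UMIs), Smc4 (699) and Tmpo (561), so 3 genes of the list do not place such a cell in G2 or mitosis.

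By the fixed measure of likeness, the CPM ratio over the pooled cells, the 10 genes outside the rule most like it were Arhgef39, Ndc80, Sgo1, Esco2, Pif1, Ncapg, Ube2c, Ska1, Kif11 and Bub1. Arhgef39, a guanine nucleotide exchange factor, had 57 UMIs in dividing cells and 1 UMI in cells with none (ratio 82.6, 14.2 to 3317). Esco2, the cohesin acetyltransferase, had 186 UMIs in dividing cells and 6 in cells with none, and Ska1, a kinetochore protein, had 128 UMIs in dividing cells and 5 in cells with none. In no list, the highest ratios after those also included Haspin, the histone H3 kinase of mitosis (63 UMIs in dividing cells, 3 in cells with none), the histone chaperone Asf1b, the shugoshin Sgo2a, the spindle protein Spag5 and the DNA glycosylase Neil3. Sgo2a had 425 UMIs in dividing cells and 25 in cells with none. Asf1b, Spag5 and Neil3 had 53 to 65 UMIs in dividing cells and 3 to 4 in cells with none.

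The 10 lowest ratios in no list rested on few cells for the most part. They were Igkc, Ighm, Klk6, Wfdc18, Jchain, Nkx6-3, Ctla2a, Cryab, S1pr3 and Gadd45b. Igkc, an immunoglobulin light chain, had 14 UMIs in 14 dividing cells and 842 UMIs in 18 cells with none, of which 825 were in 1 cell. Jchain had 3 UMIs in dividing cells and 96 in cells with none, 95 of them in 1 cell, and Nkx6-3 had 2 UMIs in dividing cells and 52 in cells with none, 51 of them in 1 cell. Cryab, a small heat shock protein, was spread more widely, with 23 UMIs in 19 dividing cells and 158 UMIs in 100 cells with none (ratio 0.211, 0.130 to 0.328), though its log2 ratio was 1.14 when 2 genes were enough to call a cell dividing. Gadd45b, a stress-induced gene, had 21 UMIs in 21 dividing cells and 125 UMIs in 69 cells with none (ratio 0.243, 0.146 to 0.388). In the 10x library Cryab (0.485) and S1pr3 (0.459) were also at 0.5-fold or less, and Gadd45b stood at 0.602.

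The same rule in the 10x library gave 238 dividing cells of 1134 kept (21.0%, 18.7 to 23.5%) and 472 cells with none. These shares are not comparable as they stand, because 10x dividing cells had a median of 22225 UMIs and 10x cells with none 4225.5. After thinning to 1000 UMIs the 10x share was 4.23% (3.14 to 5.57%), beside 13.9% in Drop-seq. The thinned shares are still not like for like, because the myeloid filter was applied at full depth. It removed 1741 of the 2875 10x barcodes that passed the other limits, and 411 of 3422 in Drop-seq. Of the 1741, 450 had at least 3 of the 8 genes at full depth. The part of the filter in the difference was not tested. Haemoglobin transcripts stood at 26.4 CPM in 10x dividing cells and 55397 CPM in 10x cells with none. At least 1 of 5 erythroid markers was found in 47.9% of 10x dividing cells and 48.1% of 10x cells with none. At the 90th percentile of cells these markers took 0.0101% of UMIs in 10x dividing cells and 66.2% in 10x cells with none. The 10x comparison group thus held cells rich in erythroid transcripts. At least 2 of 5 erythroid markers were found in 9.66% of 10x dividing cells and 20.8% of 10x cells with none, and the median cell of either group had 0 UMIs of them. Of 10655 genes counted in 10x, 400 (3.75%) were at least 2-fold higher and 129 (1.21%) at 0.5-fold or less, and the median log2 ratio was 0.09.

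A larger share of the higher genes than of the lower genes was common to both libraries. Of 8398 genes counted in both, without the 8 of the rule, 350 (4.17%) were higher in Drop-seq and 275 (3.27%) in 10x, with 253 in common (72.3% of the Drop-seq list and 92.0% of the 10x list). Lower genes numbered 178 (2.12%) in Drop-seq and 51 (0.607%) in 10x, with 20 in common (11.2% of the Drop-seq list and 39.2% of the 10x list). Cells of both libraries were chosen by the same genes. No gene was higher in Drop-seq and lower in 10x, and 2 were lower in Drop-seq and higher in 10x, Ctla2a and Nptx1. The median of the G2/M list was 4.16 in Drop-seq and 3.63 in 10x, that of the S phase list 1.84 in Drop-seq and 2.05 in 10x, that of the glial progenitor list -0.21 in Drop-seq and 0.06 in 10x, and that of the mesenchymal list -0.65 in Drop-seq and -0.51 in 10x. Single S phase genes could differ more, with Cdc6, a licensing factor, at 3.48-fold (1.86 to 6.83) in Drop-seq and 39.0-fold in 10x.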

How the data were processed

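Single-cell RNA was analysed in 1 Drop-seq library, with 1 10x library beside it, and bulk tables were left out. The authors deposited counts of UMIs per gene and barcode with no normalization, 9668449 UMIs over 28474 genes and 5000 barcodes in Drop-seq and 59300288 UMIs over 4384 barcodes in 10x. The submitters' processing notes name STAR 2.6.1e, featureCounts 1.6.2, Cell Ranger and GRCm38, without roles. Counts were pooled over the cells of a group (1949590 UMIs in dividing cells, 2823837 in cells with none) and given per 1e6 UMIs (CPM). Ratios have exact conditional binomial 95% intervals, levels exact Poisson and shares exact Clopper-Pearson intervals. A count of 0 was set at 3 counts per group. Thinning drew 1000 UMIs per cell without replacement. Python 3.11.15, numpy 2.4.6 and scipy 1.17.1 were used, and the procedure was tested on simulated data. No test was run, since the readout chose the cells and each library is 1 sample. Members, gene lists and the rule for named genes were chosen with earlier results of these data known. Named genes were the rule's, up to 6 members per list with most UMIs and those past 2-fold, the 10 highest and 10 lowest ratios in no list (predicted, ribosomal and mitochondrial genes left out), Hras and Trp53. A few list members under 2-fold (Impdh2 and others like it) were named after their values were seen. No doublets were removed. Some genes picked by the rule for named genes are not reported here.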

Additional observations from a re-analysis of the deposited data

Results flagged for a closer look

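Ctla2a was flagged because it lay in opposite directions in the libraries. Its ratio of dividing cells over cells with none was 0.190 in Drop-seq (11 UMIs in dividing cells, 84 in cells with none) and 2.52 in 10x (273 UMIs in dividing cells, 63 in cells with none). In Drop-seq the 10 highest cells with none held 89.3% of its UMIs. Ctla2a has a near-identical neighbour, so its counts are uncertain, and the difference between libraries was not tested.

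Endothelial markers were flagged for the same reason. Their median log2 ratio was -0.92 in Drop-seq over 2 counted genes, Flt1 and Egfl7, and 1.77 in 10x over 8. At least 2 of the 8 markers were found in 0.495% of dividing cells and 0.480% of cells with none in Drop-seq, and in 11.3% of dividing cells and 5.72% of cells with none in 10x, at the unequal depths of those groups. After thinning to 1000 UMIs these shares were 0.330% of dividing cells and 0.412% of cells with none in Drop-seq, and 0.420% of dividing cells and 1.27% of cells with none in 10x, where the order turned. The difference was not tested.

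Barcodes left out for a myeloid gene were flagged because they also carried division genes. Of 411 such Drop-seq barcodes, 96 had at least 3 of the 8 genes (23.4%, exact 95% interval 19.4 to 27.8%), beside 20.1% of kept cells. Thinned to 1000 UMIs the share was 14.4% in these barcodes and 13.9% in kept cells. Of the 99 barcodes with at least 3 myeloid genes 15 met the rule (15.2%, 8.74 to 23.8%), and 8.08% after thinning.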

How the results depend on the processing

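The share of dividing cells moved with depth and with the rule, from 20.1% to 15.8% at 500 or more UMIs, 29.3% at 2000 or more, 28.8% with 2 or more genes, 15.5% with 4 or more and 13.9% after thinning. It was 20.8% with at most 10% mitochondrial UMIs and 20.6% with up to 1 myeloid UMI. The G2/M median stayed between 3.58 and 4.35 and the glial progenitor median between -0.27 and -0.09 in all alternatives run. The S phase median was 1.39 against all cells with fewer than 3 genes, and 1.65 to 1.87 otherwise. Genes at least 2-fold higher numbered 160 at 200 or more UMIs per gene, and 316 to 596 otherwise. Genes at 0.5-fold or less numbered 105 at 2000 or more UMIs per cell, 124 with 2 or more genes, 318 with single-cell means, 579 at 20 or more UMIs per gene and 24 at 200 or more, against 209. With 2 or more genes the log2 ratio of Cryab was 1.14 and that of Ctla2a 0.12, and with up to 1 myeloid UMI that of Lgals3 was 0.039, each opposite in sign to its reported value, and the cause was not tested. Of 186 list or named genes past 2-fold, 152 stayed past it the same way in every alternative in which they were counted. Leaving out cells rich in oligodendrocyte markers, or barcodes 1 base apart, was chosen after seeing the data. No paired analysis was possible because each library is 1 sample and no result comes from a test.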
